A study of Mus musculus with 3 samples.

Results

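Expression of 10 mouse genes that encode paralogous subunits of the vacuolar proton pump (V-ATPase) was described in embryonic stem (ES) cells. The members were chosen by name as ubiquitous and tissue-restricted versions of the same subunits, with the measured values of this comparison in view, because 1 of them (Atp6v1c2) had come out among the steepest rises. Their levels and differences are therefore a description. The intervals printed for them cover counting error, and their calls in the whole-table fit are given as counts without being read as evidence. A row was found for 9 of the 10 genes, out of 15311 genes in the table. Of the members, 6 were treated as ubiquitous (Atp6v1a, Atp6v1b2, Atp6v1c1, Atp6v1g1, Atp6v0a1, Atp6v0a2) and 4 as restricted (Atp6v1b1, Atp6v1c2, Atp6v1g2, Atp6v0a4), from general knowledge of where they are used. Atp6v1b1 had no row and was not analysed here.

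Polyadenylated RNA was sequenced from mouse ES cells labelled V6.5 (129SvJae and C57BL/6), whose transgenic lines the labels call KH2, grown in serum with leukemia inhibitory factor and kept off feeder cells for their last passage. Both groups carried a lentiviral transgene for H2A.Z, a variant of histone H2A, joined at its C-terminus to YFP, with a CMV promoter under rtTA control and doxycycline at 1 µg/ml as inducer. In wild type (WT, 2 libraries) the tagged histone was unaltered, and in K3R3 (1 library) 3 lysines near its C-terminus were replaced by arginine. Both groups were sorted for YFP and carried a hairpin that targets the UTR of the endogenous H2A.Z transcript, with blasticidin selection. The labels do not say which hairpin each library carried, whether a line is a clone or whether the WT libraries are separate cultures, so the WT spread may be technical. The lone K3R3 library has no replicate check.

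The V-ATPase is a rotary pump that moves protons into endosomes, lysosomes, the Golgi and secretory vesicles, and across the plasma membrane of some epithelial cells. Its cytosolic part, V1, splits ATP with subunits A and B and is held to the membrane part, V0, by stalk subunits that include C and G. V0 carries the protons through a ring of small subunits turning against subunit a. Several subunits have paralogues, and a housekeeping version found in most cells is replaced or joined by another in cells such as renal intercalated cells, epididymal clear cells, osteoclasts or neurons.

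The 3 libraries held 21614693 and 25426228 counts (WT 1 and WT 2) and 24718223 counts (K3R3), and 13829 genes whose mean CPM (counts scaled to the TMM-normalised library size) reached 0.5 were fitted. Over these genes edgeR's quasi-likelihood test called 280 higher in K3R3 (2.02%) and 75 lower (0.542%) at a Benjamini-Hochberg adjusted p under 0.05. With library totals implied by the deposited RPKM values (reads scaled by gene length and library total) in place of TMM, it called 466 higher and 50 lower, and DESeq2 called 33 and 26. The median fitted log2 difference (K3R3 minus WT) was -0.01 over all fitted genes, -0.04 over the 10984 genes classed as active and 0.65 over the 1671 classed as bivalent, whose promoters bear an activating mark together with that of Polycomb. H2afz, the endogenous H2A.Z gene, had 219 and 232 CPM in WT and 222 CPM in K3R3, and since the fused histone and the endogenous transcript may share reads this checks no label. Scaling by the implied totals moved the median of all genes up by 0.12, which matters below for differences of that size.

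Each ubiquitous isoform was expressed above every restricted one in each library, by a margin that varied with the subunit. None of the ubiquitous isoforms differed between the groups by more than 1 standard error (SE) of its fitted difference. Their median RPKM was 41.6 in WT and 44.9 in K3R3. The 3 restricted isoforms with a row had a median RPKM of 0.337 in WT and 0.933 in K3R3, so the ratio of the group medians in WT was 123.5. These medians come from different subunits. Within subunit a the gap was smaller, with Atp6v0a1 at 3.58 and 5.20 times the RPKM of Atp6v0a4 in WT and 7.69 times in K3R3. Fitted log2 differences ran from -0.24 to 0.07 over the 6 ubiquitous genes, with a median of -0.11, and from -0.96 to 4.70 over the 3 restricted genes, with a median of 0.57. Between the WT libraries themselves (WT 2 minus WT 1), log2 CPM differed by -0.09 to 0.10 in the ubiquitous genes and by -0.62 to -0.18 in the restricted genes. The restricted genes thus also varied more between the WT libraries, where they had far fewer counts (3 to 204 per library in all, against 630 to 7391).

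**Figure D1:**
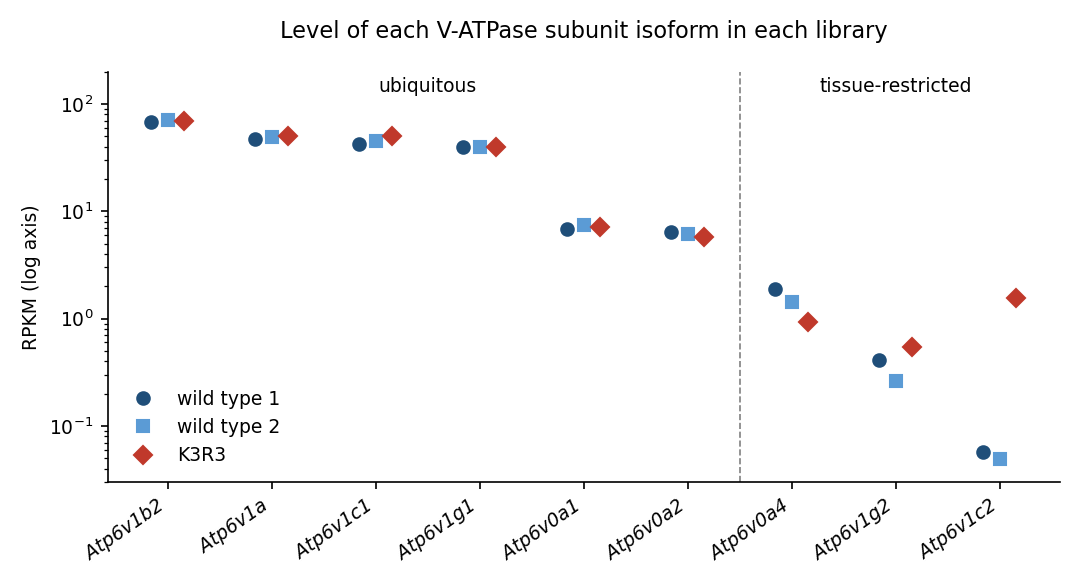
RPKM of the 9 isoforms with a row, on a log axis, with 1 point per library (circle WT 1, square WT 2, diamond K3R3) and no error bars. The points of the 6 ubiquitous isoforms lie close together, while Atp6v1c2 goes from 0.0575 and 0.0494 RPKM in WT to 1.56 RPKM in K3R3.

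In WT the order of levels was Atp6v1b2 (69.4 RPKM ± 1.84, SD, n = 2), Atp6v1a (48.3 ± 1.41), Atp6v1c1 (43.7 ± 1.52), Atp6v1g1 (39.5 ± 0.328), Atp6v0a1 (7.11 ± 0.426), Atp6v0a2 (6.25 ± 0.198), Atp6v0a4 (1.66 ± 0.337), Atp6v1g2 (0.337 ± 0.103) and Atp6v1c2 (0.0535 ± 0.00573). The WT values of neighbours in this order did not overlap, but 2 libraries set a weak limit. The closest neighbours were Atp6v1a and Atp6v1c1 (1.104-fold), Atp6v1c1 and Atp6v1g1 (1.11-fold) and Atp6v0a1 and Atp6v0a2 (1.14-fold). Between Atp6v1g1 and Atp6v0a1 the level dropped 5.55-fold, which separates the ubiquitous V1 isoforms from the subunit a isoforms. In K3R3 the order of the 6 ubiquitous genes was the same, with Atp6v1a and Atp6v1c1 a factor of 1.01 apart, while Atp6v1c2 stood above both Atp6v0a4 and Atp6v1g2.

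Promoter bases are shown for the restricted genes, which include those with the largest differences between the groups, and for a ubiquitous gene of each part of the pump. RefSeq promoters (assembly GRCm38.p6, 250 bases before to 50 after an annotated start) were matched for 6 of the 10 members, with no entry for Atp6v1b2, Atp6v1c1, Atp6v1g1 and Atp6v0a2. The counts were made on another build (mm9), so the positions belong to the reference alone. Each line gives the 30 bases before the start on the gene's strand, 5′ to 3′, with CpG pairs in capitals.
Atp6v1c2, chr12:17324731-17324760, minus strand: taaaaggCGgggCGgggCGCGcacCGgacc
Atp6v1b1, chr6:83742987-83743016, plus strand: ggcacaggctgagcagccCGctccagctcc
Atp6v1g2, chr17:35234980-35235009, plus strand: cagCGcCGtgtCGccatggCGgtcctggtg
Atp6v0a4, chr6:38124587-38124616, minus strand: tcatcctggattcttaggtgggaatcagac
Atp6v1a, chr16:44139260-44139289, minus strand: tccttagcaatgcactttaacccttgccat
Atp6v0a1, chr11:101010368-101010397, plus strand: aacacctaatgcCGaaaggatttgtttttc
Over the whole 300 bases Atp6v1c2 held 22 CpG pairs, more than the other 5 matched members and at the 76.9th percentile of 32851 promoters of the same length, whose median was 7. This was not particular to it within the pump. Among 10 other subunits and accessory proteins with a promoter in the table, Atp6v0b held 28, Atp6v0d1 26 and Atp6ap2 24, and the rest held fewer than Atp6v1c2. Atp6v0a4 held 1 (5.43rd percentile), Atp6v1b1 3, Atp6v0a1 7 and Atp6v1a 10. Atp6v1g2 has a pair of starts in the table, with 13 and 12. The starts used for Atp6v1c2, Atp6v1a, Atp6v1g2 and Atp6v0a1 lie inside the annotated gene, by 656, 443, 79 and 976 bases, so another start upstream is annotated for each.

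Subunits A and B form the ring of V1 that binds and splits ATP, with the catalytic sites on A. Atp6v1a, which encodes A, had 6094 and 7391 counts in WT and 7333 in K3R3, or 290, 298 and 282 CPM. Its fitted log2 difference was -0.06 (SE 0.19), and the sign turned with the scaling (0.06 with the totals implied by RPKM). The K3R3 library lay just under both WT libraries by CPM and just over both by RPKM (47.3, 49.3 and 50.4). Atp6v1b2, the widely expressed B isoform, had 6098 and 7368 counts in WT and 7054 in K3R3, or 290, 297 and 271 CPM. The fitted log2 difference was -0.12 (SE 0.19), which became 0.01 with the implied totals, and its K3R3 level by RPKM (69.8) lay between the WT levels (68.1 and 70.7). Neither gene thus differed between the groups by more than its SE, and together they stood between the 92.0th and 95.2nd percentiles of RPKM over all genes in the table in each library. RPKM of Atp6v1a relative to Atp6v1b2 was 0.694 and 0.697 in WT and 0.722 in K3R3.

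The promoter of Atp6v1a was the single matched member promoter that held the palindrome CACGTG, which is the E-box bound by MiT/TFE and other helix-loop-helix factors. It sits there inside the longer TCACGTGA, the core of the motif shared by many lysosomal genes, whose first base lies 132 bases before the start. The 30 bases around it, with the longer motif in capitals, are given on the gene's strand.
Atp6v1a, chr16:44139373-44139402, minus strand: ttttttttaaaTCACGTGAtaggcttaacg
On both strands, CACGTG was found in 7.15% and TCACGTGA in 0.974% of the 32851 promoters. Among the 10 other subunits and accessory proteins with a promoter in the table, Atp6v0b, Atp6v0d1 and Atp6v0e held CACGTG, and the last 2 of these held it within TCACGTGA. TATAAA, found in 13.6% of all promoters, was in none of the 6 member promoters. These matches describe letters in a fixed window and not binding.

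Subunit C bridges the stalk of V1 and the membrane part and is released when the pump comes apart. Atp6v1c1, its ubiquitous isoform, had 2923 and 3573 counts in WT and 3870 in K3R3, or 139, 144 and 149 CPM. K3R3 lay above both WT libraries, with a fitted log2 difference of 0.07 (SE 0.21) that kept its sign in the 6 alternatives tried. Atp6v1c2, the isoform known from kidney, lung and epididymis, had 3 counts in each WT library and 92 in K3R3, or 0.143, 0.121 and 3.53 CPM. It was near the bottom of the table in WT (5.70th and 5.28th percentiles of RPKM) and at the 34.9th percentile in K3R3. The ratio of K3R3 to the pooled WT was 27.0, with an exact 95% interval of 11.9 to 75.5 that covers counting error only. Its fitted log2 difference was 4.70 (SE 0.82), at the 99.98th percentile of all fitted genes, and 4.28 and 4.46 against WT 1 and WT 2 alone. Atp6v1c2 passed the filter on low values through its K3R3 level alone, so it could only come out as a rise.

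Within subunit C, the share of Atp6v1c2 was computed from counts per length in each library, which does not depend on how libraries are scaled. It was 0.135% in WT 1 (exact binomial 95% interval 0.0278 to 0.393), 0.110% in WT 2 (0.0227 to 0.322) and 3.03% in K3R3 (2.45 to 3.70). The K3R3 share was 24.7 times the WT mean. The gene was chosen for its rise and rests on 3 counts in each WT library, so the intervals are not read as a test. Even so, Atp6v1c1 remained the main isoform, with 742 and 907 times the RPKM of Atp6v1c2 in WT and 32.0 times in K3R3. The coding sequences of the pair (GENCODE M21) matched in 66.6% of 1127 aligned bases, and the longest stretch they shared was 15 bases.

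**Figure D2:**
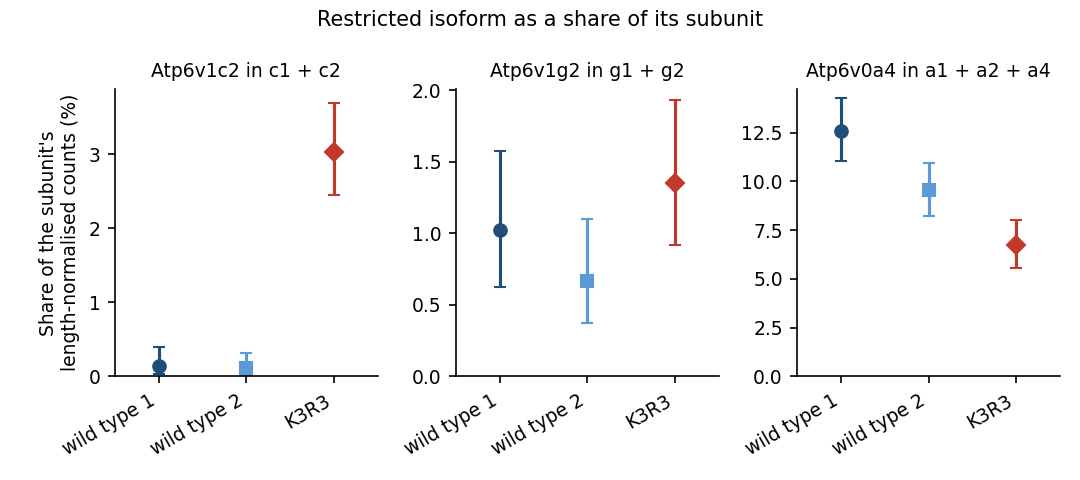
Share of the restricted isoform in its subunit (percent of length-normalised counts), for subunits C, G and a, with a linear axis from 0 in each panel, 1 point per library and exact binomial 95% bars that cover counting error only. Atp6v1c2 goes from 0.135% and 0.110% to 3.03%, the Atp6v1g2 bars overlap, and Atp6v0a4 goes from 12.6% and 9.54% to 6.72%.

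Subunit G belongs to the peripheral stalks that keep V1 from turning with the rotor. Atp6v1g1, the ubiquitous isoform, had 1418 and 1631 counts in WT and 1597 in K3R3, or 67.5, 65.7 and 61.3 CPM. The fitted log2 difference was -0.12 (SE 0.24) and turned to 0.01 with the implied totals, and by RPKM K3R3 (39.6) lay between the WT libraries (39.7 and 39.3). Atp6v1g2, the isoform known from neurons, had 20 and 15 counts in WT and 30 in K3R3, or 0.951, 0.604 and 1.15 CPM. K3R3 was the highest of the 3 libraries by CPM, but the WT libraries differed by 0.62 on the log2 scale and the fitted difference was 0.57 (SE 0.82). By percentile of RPKM within its library, K3R3 (21.0) lay between the WT libraries (22.6 and 18.2). The ratio of K3R3 to pooled WT was 1.51, with an exact 95% interval of 0.895 to 2.53. Atp6v1g2 made up 1.02% and 0.668% of subunit G in WT and 1.36% in K3R3 (0.916 to 1.93), and this interval overlapped both WT intervals (0.624 to 1.57 and 0.374 to 1.101). The difference was thus not told apart from counting error. How large a change could be detected at these counts was not measured.

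Subunit a is the part of V0 that guides protons past the ring, and its isoforms direct the pump to different membranes. Atp6v0a1, abundant at synaptic vesicles but widely expressed, had 892 and 1130 counts in WT and 1060 in K3R3, or 42.4, 45.5 and 40.7 CPM. Its fitted log2 difference of -0.11 (SE 0.27) became 0.01 with the implied totals, and K3R3 lay between the WT libraries by RPKM (6.81, 7.42 and 7.18). Atp6v0a2, the isoform of the Golgi and endosomes, had 630 and 701 counts in WT and 643 in K3R3, or 30.0, 28.2 and 24.7 CPM. K3R3 was the lowest library by CPM and by RPKM, and the fitted log2 difference was -0.24 (SE 0.30), negative in each of the 6 alternatives.

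Atp6v0a4, the isoform known from renal intercalated cells, the inner ear and the epididymis, had 204 and 178 counts in WT and 113 in K3R3, or 9.70, 7.17 and 4.34 CPM. K3R3 lay below both WT libraries, which differed from each other by 0.43 on the log2 scale. The fitted log2 difference was -0.96 (SE 0.42), with -1.15 and -0.72 against WT 1 and WT 2 alone, and stood at the 1.54th percentile of all fitted genes. Counting alone gave a K3R3 to WT ratio of 0.521 (exact 95% interval 0.418 to 0.644), narrower than the spread of the WT pair allows. Its share of a1, a2 and a4 together was 12.6% (11.0 to 14.3) and 9.54% (8.25 to 11.0) in WT and 6.72% (5.58 to 8.02) in K3R3, or 0.608 times the WT mean. The WT mean was 11.1% ± 2.16 (SD, n = 2), so K3R3 lay 4.34 points under it. The remaining isoform, Tcirg1 (a3, known from osteoclasts), had 1.33 and 1.102 RPKM in WT and 1.74 in K3R3. With Tcirg1 counted in, Atp6v0a4 held 11.6% and 8.88% of subunit a in WT and 5.98% in K3R3, and Tcirg1 8.11%, 6.86% and 11.1%. Atp6v0a4 was thus above Tcirg1 in both WT libraries and below it in K3R3.

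**Figure D3:**
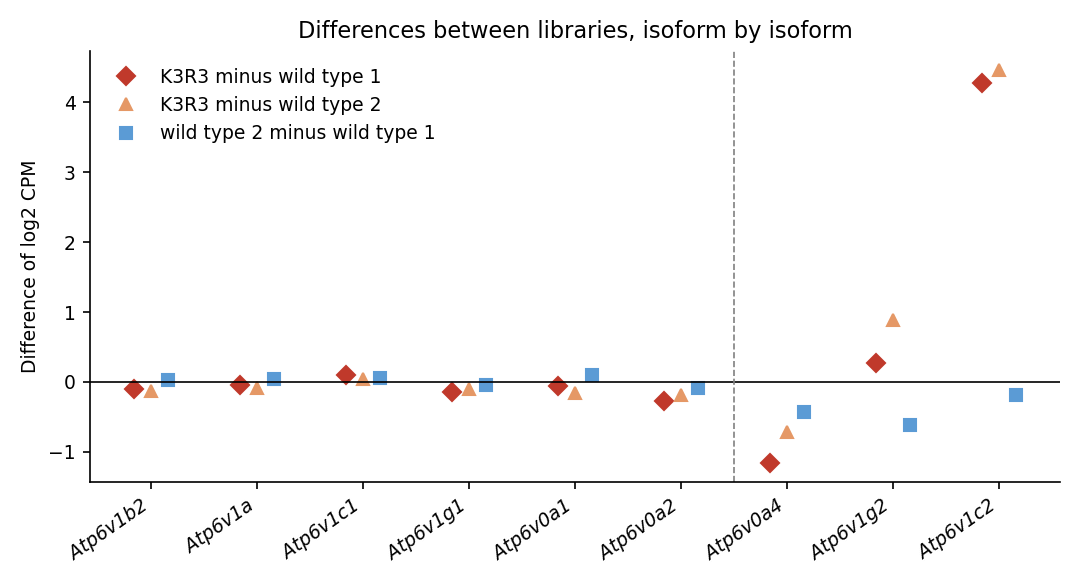
Difference of log2 CPM for each isoform between K3R3 and each WT library (diamond and triangle) and between the WT libraries (square), with a dashed line between the ubiquitous genes on the left and the restricted genes on the right. The K3R3 differences of the 6 ubiquitous genes stay between -0.28 and 0.10, those of Atp6v0a4 are -1.15 and -0.72, and those of Atp6v1c2 are 4.28 and 4.46.

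By CPM the K3R3 value lay above both WT values in 3 of the 9 members (Atp6v1c1, Atp6v1c2, Atp6v1g2), where 33.9% of all fitted genes did, and below both in 6, where 34.2% did. By the deposited RPKM it lay above both in 4 (48.7% of all fitted genes), below both in 2 (Atp6v0a2, Atp6v0a4; 19.2%) and between them in 3. The small negative differences of Atp6v1a, Atp6v1b2, Atp6v1g1 and Atp6v0a1 turned positive with the implied totals, where the median of all genes rose from -0.01 to 0.11. All of these genes lay below the all-gene median under both scalings (-0.12 to -0.06 with TMM, 0.01 to 0.06 with the implied totals). With TMM each differed from 0 by less than its SE. Of the 9, edgeR's whole-table test called 1 higher (Atp6v1c2, beside 2.02% of all genes) and 0 lower (beside 0.542%). DESeq2 also called 1, and 2 of the 9 had an unadjusted p under 0.05. Because the members were selected on this comparison, nothing is read from these counts.

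The class code went with the restricted rise in a single case. Atp6v1c2 was classed as bivalent, 7 members were classed as active, among them Atp6v1g2, and Atp6v0a4 had no class. To place Atp6v1c2 among genes of its kind, bivalent genes with at most 10 counts in each WT library were taken, a limit set after the data had been seen. There were 329, with a median of 14 counts in K3R3 (quartiles 9 and 26) and a highest value of 163. Atp6v1c2 ranked 3rd, after Tmem56 (8 and 7 counts in WT, 163 in K3R3) and Gabra5 (5 and 8, then 103). In the 456 active genes chosen by the same limit the median was 8 counts in K3R3 and the highest 69. With a limit of 5 counts Atp6v1c2 ranked 1st of 150 bivalent genes, and the highest of 183 active genes had 48 counts in K3R3. With a limit of 20 it ranked 9th of 607 bivalent genes, and there 2 of 909 active genes reached its level, the highest with 166 counts against 163 in the bivalent genes. No gene in the table had a count under 1, so genes without a read in K3R3 are missing from these sets. Their absence can raise the K3R3 medians and quartiles given here. Genes picked for low WT counts tend to be higher in any other library, so these ranks compare genes with each other and not K3R3 with WT. A high rank of Atp6v1c2 also follows from its having been chosen as a steep rise, so its ranks are not support for that rise.

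**Figure D4:**
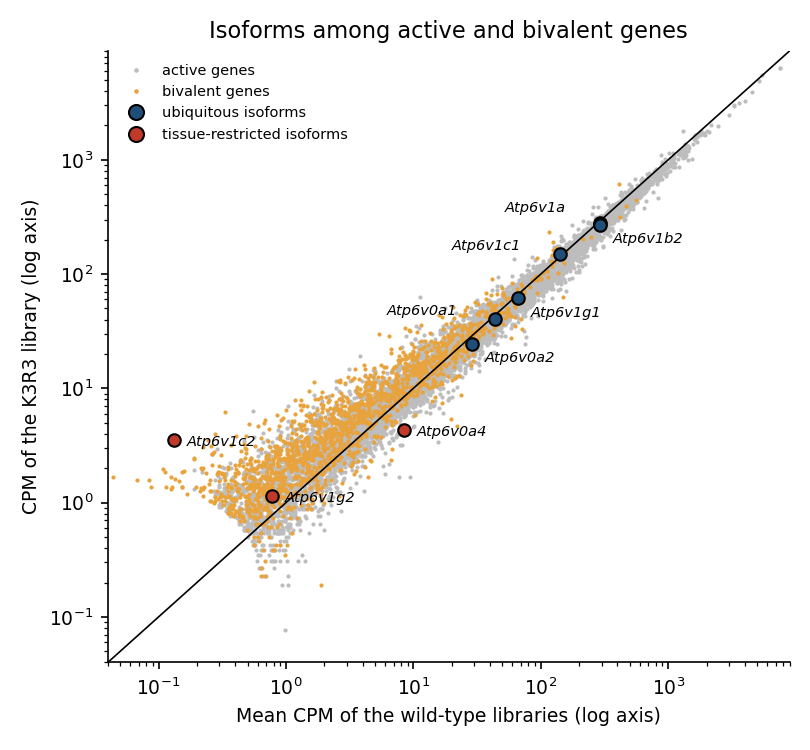
CPM in K3R3 against the mean CPM of the WT libraries, both on log axes, for active (grey) and bivalent (orange) genes that passed the filter, with the 6 ubiquitous isoforms in blue, the 3 restricted isoforms in red and the line of equal CPM. The ubiquitous isoforms lie on or near the line, while Atp6v1c2 (0.132 CPM in WT, 3.53 CPM in K3R3) lies far above it and Atp6v0a4 (8.44 and 4.34 CPM) below it.

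The genes whose levels over the 3 libraries were nearest to those of Atp6v1c2, by Euclidean distance of log2(CPM + 0.5), were Fat3 (distance 0.201), 2010300C02Rik (0.442), Gabra5 (0.474), Ahrr (0.514), Thbs4 and Rad21l (both 0.526), against a median distance of 7.38 over all genes. Fat3, an atypical cadherin gene, had 3 and 1 counts in WT and 91 in K3R3. Ahrr, which encodes a repressor of the aryl hydrocarbon receptor, had 6 counts in each WT library and 70 in K3R3. Gabra5, a GABA receptor subunit gene, and 2010300C02Rik were classed as bivalent like Ahrr and Thbs4, while Rad21l, a meiotic cohesin gene, was classed as active. With 3 libraries this likeness means low in both WT libraries and about as high in K3R3.

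The genes next to the restricted members were read in the same libraries, with positions from RefSeq on GRCm38 and not on the build of the counts. Pdia6, a protein disulfide isomerase gene that lies on the opposite strand and overlaps the 3′ end of Atp6v1c2 by 65 bases, had 7394 and 7062 counts in WT and 7821 in K3R3 (log2 -0.08, SE 0.19). Nol10, on the other side of Atp6v1c2, had a log2 difference of 0.11 (SE 0.20). Neither neighbour of Atp6v1c2 was called, and neither differed by more than its SE. D630045J12Rik, which overlaps Atp6v0a4 by 1413 bases on the same strand, had 271 and 316 counts in WT and 632 in K3R3, above both (log2 0.92, SE 0.32, not called), while Atp6v0a4 was below both. Nfkbil1 overlaps Atp6v1g2 by 1551 bases on the opposite strand and had 27 and 17 counts in WT and 23 in K3R3. The libraries were strand-specific, but the strand setting of the counting was not given in the sources used here, so reads in these overlaps cannot be told apart with certainty. For Atp6v1b1, which has no values here, Vax2os2 before it was called lower (49 and 35 counts in WT, 5 in K3R3, log2 -3.24, SE 0.95, by edgeR's quasi-likelihood test) and Ankrd53 after it had 15, 11 and 6 counts. Vax2os2 alone was called among the neighbours read here, beside 0.542% of all genes called lower. That call rests on 5 counts in the lone K3R3 library.

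The rest of the pump and of the pathway around it was taken from lists of genes named for their function. No gene of the 5 pathway lists was called in either direction by edgeR, beside 2.02% called higher and 0.542% lower over all genes, and DESeq2 called none. Without adjustment, p was under 0.05 for 0 of 4 other V1 subunits, 0 of 7 other V0 subunits and accessory proteins, 0 of 11 assembly and regulation genes, 2 of 26 lysosome genes and 1 of 12 Ragulator and Rag genes, against 1552 of all 13829 genes. Self-tests on simulated counts at this design recovered 33% of 2-fold and 79% of 4-fold changes. The changed genes were drawn at random from all fitted genes, and over such genes changes under 2-fold would mostly be missed. The rate in these lists, where many genes have high counts, was not measured.

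Among the other V1 subunits (4 of 6 listed genes with a row), the median log2 difference was 0.04, from Atp6v1d at -0.12 (SE 0.21), a subunit of the central rotor, to Atp6v1f at 0.13 (SE 0.28). Of the other V0 subunits and accessory proteins 7 of 9 had a row, and Atp6v0c and Atp6v0d2 had none. The median of those with a row was -0.00, from Atp6ap1 at -0.23 (SE 0.23), an accessory protein of V0, to Atp6v0e2 at 0.40 (SE 0.35). The 7 ubiquitous subunits without a member paralogue here had 29.3 to 64.2 RPKM in WT, with a median of 37.9, and 31.4 to 73.2 in K3R3. The ubiquitous V1 members (39.5 to 69.4 RPKM in WT) lay in or just above that range, while Atp6v0a1 and Atp6v0a2 lay under it. Over the assembly and regulation genes (11 of 12), the median was -0.06, from Oxr1 at -0.30 (SE 0.21) to Tmem9 at 0.27 (SE 0.35), both of which encode proteins that act on the pump.

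The 26 lysosome and MiT/TFE genes had a median log2 difference of -0.02, and 11 of them lay above 0. The lowest was Tfec, a MiT/TFE transcription factor gene, with 71 and 53 counts in WT and 18 in K3R3 (log2 -1.98, SE 0.70). The highest was Sgsh, a lysosomal sulfatase gene, with 15 and 38 counts in WT and 41 in K3R3 (log2 0.48, SE 0.72). For the 12 Ragulator and Rag genes, which tether and switch mTORC1 at the lysosome and touch the pump, the median was -0.03, from Mtor at -0.27 (SE 0.24) to Rragd, a Rag GTPase gene, at 0.69 (SE 0.24). Rragd had 898 and 1190 counts in WT and 1903 in K3R3, above both WT libraries, and was called higher with the implied totals, alone among the settings tried. The medians of the 5 lists lay within 0.05 of that over all genes (-0.01), apart from that of the other V1 subunits. With the implied totals the 5 medians were 0.06 to 0.16, around an all-gene median of 0.11.

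**Figure D5:**
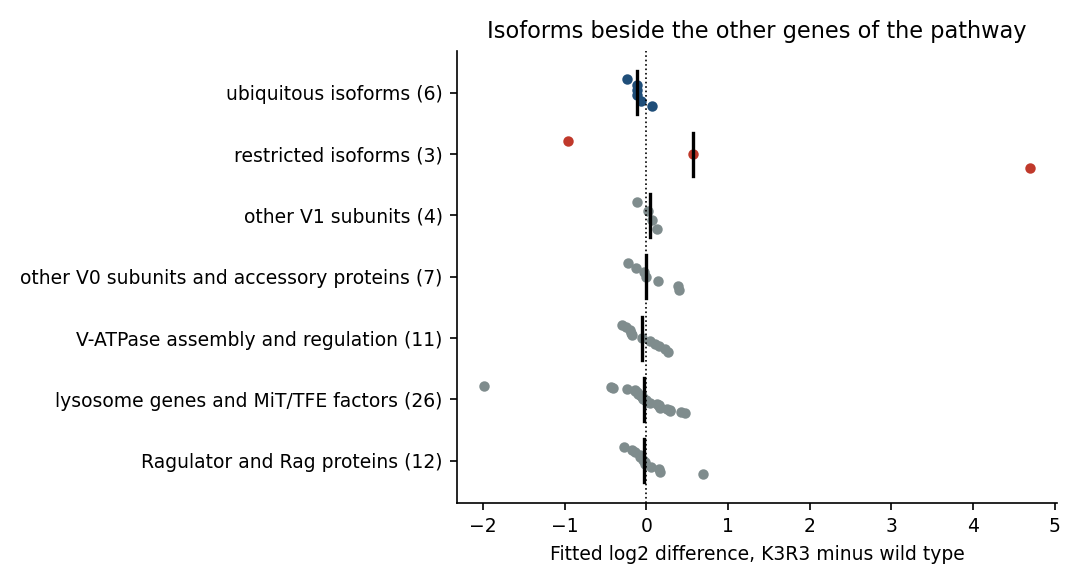
Fitted log2 difference (K3R3 minus WT) of each gene of the ubiquitous isoforms, the restricted isoforms and the 5 pathway lists, with the number of fitted genes in brackets, a vertical bar at each median and a dotted line at 0. Medians of the pathway lists lie between -0.06 and 0.04, and the restricted isoforms spread from -0.96 to 4.70.

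Because bulk RNA was measured, fewer cells of a type and less RNA per cell cannot be told apart, and markers of cell types that use these isoforms were read beside them. Of 10 markers of acid-secreting intercalated cells, where Atp6v1c2 and Atp6v0a4 are known, 8 had a row and 2 reached the filter, Foxi1 and Insrr had no row, and the summed CPM of the list was 2.14 and 2.34 in WT and 4.84 in K3R3. Slc4a1, an anion exchanger gene also used in red cells, held most of that difference with 3 and 8 counts in WT and 44 in K3R3 (log2 2.81, SE 0.89, not called). Like Atp6v1c2, Slc4a1 passed the filter through its K3R3 level alone, so it could only come out as a rise. By CPM, Slc4a1, Slc26a4, Aqp6 and Dmrt2 lay above both WT libraries, and Slc4a9, Rhcg, Rhbg and Hepacam2 lay between them. Of 9 neuronal markers, beside Atp6v1g2, Gap43 alone was called higher by edgeR (75 and 69 counts in WT, 303 in K3R3; 1 of 9, beside 2.02% of all genes), and DESeq2 called none. In this list 6 of 9 markers lay above both WT libraries by CPM (beside 33.9% of all fitted genes) and 2 below both (beside 34.2%). Some of the 6 had few counts, such as Rbfox3 (12 and 13 in WT, 37 in K3R3) and Snap25 (18 and 40, then 95). The median log2 difference of the list was 0.45. The summed CPM was 402 and 297 in WT and 285 in K3R3, but 61.4, 60.7 and 82.5 without Stmn2, the most abundant of them (341, 236 and 202 CPM). Their part in the differences of Atp6v1c2, Atp6v0a4 and Atp6v1g2 was not tested.

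The ES cell markers were abundant in every library, with a summed CPM of 4042 and 3127 in WT and 2623 in K3R3 over 6 genes. Sox2 and Dppa5a were called lower in K3R3 by edgeR (2 of 6, beside 0.542% of all genes), and DESeq2 called none of the 6. Dppa5a held the largest part of the sum (1862, 1189 and 1016 CPM), and its WT libraries differed by 0.65 on the log2 scale. By CPM 4 of 6 lay below both WT libraries (34.2% of all fitted genes), among them Zfp42 at a log2 difference of -0.05 (SE 0.18). Nanog alone lay above both (33.9%), at 0.18 (SE 0.28). The list's median log2 difference was -0.36. In the fibroblast list 12 of 14 markers had a row (Postn and Lum had none), Thy1 alone was called higher by edgeR (1 of 12, beside 2.02% of all genes), DESeq2 called none, and the median was 0.14. The summed CPM was 1603 and 1509 in WT and 1168 in K3R3, most of it from Fn1 (1229, 1197 and 864) and Vim (246, 188 and 164). Without these it was 128, 124 and 140. By CPM, Col1a1, Col1a2, Col3a1, Thy1, Twist1 and Pdgfrb (6 of 12) lay above both WT libraries, beside 33.9% of all fitted genes. Fn1, Vim and Pdgfra (3 of 12) lay below both, beside 34.2%, and Dcn, S100a4 and Acta2 lay between the WT libraries. Over the trophoblast list (9 of 10, Elf5 without a row) edgeR called none, 1 gene had an unadjusted p under 0.05, DESeq2 called none, and the summed CPM was 143 and 67.8 in WT and 104 in K3R3. Their part in the isoform differences was not tested either.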

How the data were processed

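The authors deposited whole-number counts for each gene. The submitters' processing notes name HTSeq 0.5.4p1 and build mm9, and for aligner, annotation and strand setting nothing was given in the sources used here. The smallest count was 1, so genes with 0 in a library had no row. Whether a given gene without a row had a 0 or was absent for another reason was not tested. RPKM values, deposited by the authors, were used for levels between genes. The deposited fold ratio, log2 and p-value columns (DESeq 1.10.1 is named in the notes) were not used, since the deposited log2 sign was opposite to K3R3 minus WT in 100% of 1300 genes that differed over 2-fold. Directions given here rest on the count columns as named. The deposited gene length served for shares.

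Members and lists were chosen with earlier results of these data known. edgeR 4.0.16 (R 4.3.3) fitted TMM-scaled counts of 13829 genes (mean CPM of at least 0.5) by a two-sided quasi-likelihood test, Benjamini-Hochberg at 0.05. The spread came from the WT pair (1 residual degree of freedom), the prior degrees of freedom were infinite, and K3R3 is assumed to vary like WT. Against 1 WT library alone, log2 CPM values (prior count 1) were subtracted without a test. Counts summed to 66.2% to 67.1% of the totals implied by RPKM. Alternatives were other scalings, filters, DESeq2 1.42.0 and leaving out a WT library. Intervals used scipy 1.17.1 and coding alignments Biopython 1.88. The fit was tested on simulated counts (8 false calls among 13829 genes). Named genes were all members, called and extreme list genes, neighbours of restricted members, the 5 nearest to Atp6v1c2 (6 with a tie) and H2afz.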

Additional observations from a re-analysis of the deposited data

How the results depend on the processing

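The signs of the log2 differences of Atp6v1c2, Atp6v1g2, Atp6v0a4, Atp6v1c1 and Atp6v0a2, and the direction of the shares of the first 3 of these, were the same in every alternative that gave a value. The ubiquitous median of log2 differences was -0.12 with DESeq2 size factors and 0.010 with the totals implied by RPKM. Leaving out each WT library, which gives values without a test, put it between -0.12 and -0.079. The restricted median was -0.96 with a mean CPM of at least 2, where Atp6v0a4 alone was left, and 0.27 to 0.89 without a WT library. Over all genes, calls of higher genes were 466 with the implied totals and 33 with DESeq2, and calls of lower genes 26 with DESeq2. Of the Ragulator and Rag genes 1 (Rragd) was called higher with the implied totals. The cause was not tested. Of the other values compared, 68 stayed within their spread and 16 moved, mostly with the implied totals. Without a WT library, the K3R3 to WT fold of the share was 22.5 to 27.5 for Atp6v1c2, 1.33 to 2.03 for Atp6v1g2 and 0.534 to 0.705 for Atp6v0a4. The 3 WT counts of Atp6v1c2 limit its ratio more than any setting tried. Counts of calls could not be given without a WT library, since no residual degree of freedom is left. No paired analysis was possible because K3R3 has 1 library and no replicate number.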
